A study of Mus musculus with 16 samples.

Results

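Erythro-myeloid progenitors (EMP) were followed in chimeric mouse embryos made of Stat3 null and wild-type (WT) cells. EMP were the cells to which the authors' transfer of labels from an atlas of mouse gastrulation gave that name, without doublet calls, cells that failed the authors' quality limits and WT-sorted cells with a tdTomato transcript. They numbered 359 of 37841 analysed cells, of which 160 were null and 199 WT. By stage there were 4 EMP at embryonic day (E) 7.5, 92 at E8.5 and 263 at E9.5.

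EMP are blood progenitors that bud from haemogenic endothelium of the yolk sac after the first primitive red cells have formed. They give rise to red cells, megakaryocytes, mast cells, granulocytes and the macrophages that settle in embryonic tissues. The receptor kinase Kit and the transcription factors Myb, Runx1 and Spi1 (PU.1) mark them, and cytokine receptors that signal through JAK kinases and STAT proteins act on them and on their progeny.

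Null cells descended from tdTomato-expressing CD1 embryonic stem cells (ESCs) in which internal Stat3 exons had been replaced by a resistance cassette, and WT cells descended from the CD1 host blastocysts into which these ESCs had been injected. Both genotypes were sorted by flow cytometry from the same chimeras, so they shared the embryo, but the Stat3 genotype and descent from cultured ESCs cannot be told apart. Droplet single-cell RNA sequencing counted transcripts by unique molecular identifiers (UMIs) in 16 libraries of whole embryos, 4 at E7.5, 4 at E8.5 and 8 at E9.5, with as many of each genotype. EMP were found in 14 libraries, named here by stage, genotype and a letter that carries no further meaning, and their E7.5 cells were too few for any comparison.

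An EMP carried between 10244 and 90618 UMIs (median 38428) and a median of 5859 genes. EMP of a library summed to between 173348 UMIs (E8.5 null B, 7 cells) and 2924121 UMIs (E9.5 null A, 71 cells) at E8.5 and E9.5. At E9.5 null B and C held 8 and 14 EMP, so values of these libraries rest on few cells. The median UMIs per EMP did not separate the genotypes at E9.5, at 50630.5 ± 11426.7 in null and 50112 ± 13933.3 in WT libraries (SD, n = 4 each, exact two-sided permutation test, p = 0.943). No EMP barcode occurred in more than 1 library. Of the 160 null EMP, 154 carried a tdTomato UMI. The study's methods count fewer E9.5 embryos than E9.5 libraries of a genotype, and the embryo of a library is not known. By that count some E9.5 libraries of a genotype share an embryo and are not independent replicates. All p-values, SDs and values of n therefore speak of these libraries only and not of embryos. Xist reached 355.6 and 356.5 CPM (UMI counts of a gene scaled to the same total in every library) in E9.5 WT B and C and at most 2.61 CPM in the other E9.5 libraries, and Y-linked transcripts were at 0 UMIs in WT B and C alone among the E9.5 libraries, so sex differed between libraries as well as genotype.

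The label was checked against the markers in E9.5 WT cells, where EMP were compared with 56 other types of at least 30 cells. Several blood types had fewer WT cells and were not compared. These were MEP (7), Blood progenitors (1), Haematoendothelial progenitors (3) and Chorioallantoic-derived erythroid progenitors (16). EMP ranked first for Myb at 77.0 CPM and for Spi1 at 294 CPM. For Myb the next type, the Megakaryocyte progenitors, reached 13.6 CPM, and for Spi1 they reached 24.0 CPM. Runx1 stood at 171 CPM, second to 250 CPM in Megakaryocyte progenitors, and Kit at 47.1 CPM, level with 47.5 CPM in the pharyngeal endoderm. All 4 markers were thus present. Averaged over cells, the type most like EMP among those compared was the Megakaryocyte progenitors. Their Pearson correlation was 0.888 over 11933 genes of the same libraries, followed by Erythroid cells at 0.862.

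Several myeloid and leukocyte genes set EMP apart from every other type compared. Mpo, the myeloperoxidase of neutrophil granules, reached 289 CPM in EMP against at most 3.45 CPM elsewhere, a ratio of 83.7. Prtn3, the granule protease proteinase 3, reached 485 CPM against at most 15.6 CPM, a ratio of 31.1. The pan-leukocyte gene Ptprc reached 89.4 CPM against at most 0.874 CPM, the chemokine receptor gene Cx3cr1 130 CPM against at most 2.25 CPM, and the CSF1 receptor gene Csf1r 98.4 CPM against at most 4.37 CPM. These values describe the type and were not tested, because the labels were assigned from the same expression values.

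EMP were a mixture. Each cell was thinned to 10000 UMIs, which left out no cell, and scored for a UMI of 5 macrophage genes (Cx3cr1, Mrc1, C1qa, C1qb and C1qc, the last 3 encoding complement C1q), a set picked after their values were seen. None was found in 202 EMP, while 157 had at least 1 and 92 had 10 or more, up to 59 in a cell. The rest of the 157 had fewer than 10, among them 20 EMP with exactly 1 UMI, 12 with 2 and 7 with 3. In spinal cord progenitors of E9.5, which should lack these genes, 1.73% of 173 cells had such a UMI after thinning. Their median depth before thinning was 37517 UMIs.

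Cells with and without a macrophage UMI differed in the markers, over E9.5 libraries with at least 5 such cells. Kit lay between 66.4 and 103 CPM in EMP without a macrophage UMI and between 0 and 18.9 CPM in those with one. Myb lay between 107 and 141 CPM without and between 8.89 and 32.7 CPM with a macrophage UMI. Csf1r went the other way, with 0 to 23.0 CPM without and 174 to 284 CPM with one. Spi1 was present in both, at 151 to 196 CPM without and 366 to 515 CPM with a macrophage UMI, and so was Runx1, at 203 to 234 CPM and 82.9 to 195 CPM. By their markers, cells labelled EMP therefore included Kit- and Myb-rich progenitors and cells with macrophage transcripts and little Kit.

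Transcripts of several blood fates occurred in EMP. A UMI of Mpo, Prtn3, Elane or Ctsg, which encode granule proteins, was seen in 200 of 359 thinned EMP (55.7%), and one of the megakaryocyte genes Pf4, Gp9 or Itga2b in 142 (39.6%). The erythroid genes Gata1, Klf1 or Epor were seen in 38 EMP (10.6%). Granule and megakaryocyte transcripts met in 74 cells (20.6%), and granule and erythroid transcripts in 19 (5.29%). In spinal cord progenitors of E9.5 a megakaryocyte UMI was seen in 8.67%, an erythroid UMI in 1.73%, and granule and megakaryocyte UMIs together in 0.578% of 173 cells. Haemoglobin chains made up 0.111% of EMP UMIs in E9.5 WT A and likewise 0.111% of the UMIs of spinal cord progenitors in that library. In E9.5 null A the haemoglobin share was 0.181% in EMP against 0.00406% in spinal cord progenitors, and its source was not tested.

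The first comparison asked whether null cells enter the EMP compartment. They did so at both stages. At E8.5 EMP made up 1.06% and 0.549% of cells in WT A and B, and 0.965% and 0.611% in null A and B, so the genotypes overlapped. At E9.5 they made up 1.56%, 1.14%, 1.16% and 1.26% in WT A to D, and 1.64%, 0.332%, 0.879% and 1.29% in null A to D. The null libraries held both the highest and the lowest share, the latter from 8 of 2410 cells with an exact 95% binomial interval of 0.143% to 0.653%, which covers counting error only.

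EMP abundance did not pass the test at either stage. In edgeR's quasi-likelihood test over 71 cell types at E9.5 the log2 fold change of null over WT was -0.32 (SE 0.43, 95% interval -1.17 to 0.52, Benjamini-Hochberg adjusted p = 0.965). At E8.5 it was 0.03 over 68 types (SE 0.55, 95% interval -1.35 to 1.41, adjusted p = 0.984). The effect did not differ detectably between the stages (edgeR interaction -0.34, SE 0.76, adjusted p = 1.00). The intervals allow a change of more than 1 log2 unit in the E9.5 number and do not show that it was equal. EMP with a macrophage UMI made up 0.654% of null and 0.590% of WT cells at E9.5 (exact permutation test, p = 0.971, n = 4 each), and EMP without one 0.383% and 0.689% (exact permutation test, p = 0.143, n = 4 each).

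Relative to red cells, EMP were far more frequent among null cells at E9.5. Per Erythroid cell there were 0.293, 0.698, 0.579 and 0.370 EMP in WT A to D, and 7.89, 4.00, 7 and 3.33 in null A to D. Every null library lay above every WT library, by 3.51 on the log2 scale (exact two-sided permutation test, p = 0.0286, the smallest that 70 arrangements can give). EMP made up 58.4% ± 8.55 of null and 26.1% ± 5.61 of WT blood cells (SD, n = 4 each, exact permutation test, p = 0.0286). At E8.5 the ratio was 0.0634 and 0.0338 in WT and 0.0623 and 0.0534 in null libraries, which overlapped. The ratio moved with its denominator, since null A to D held 9, 2, 2 and 6 Erythroid cells and WT A to D held 164, 43, 38 and 135.

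**Figure D1:**
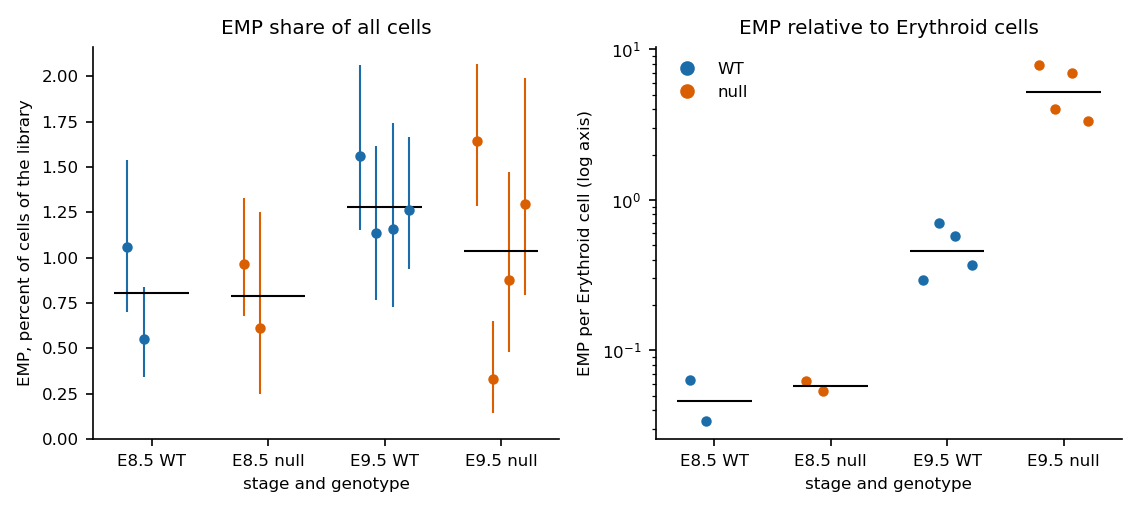
EMP as percent of all cells (left, exact 95% binomial interval) and EMP per Erythroid cell (right, logarithmic axis), 1 point for each library of E8.5 and E9.5 by genotype. The shares overlap at both stages, and the E9.5 ratios are 0.293 to 0.698 in WT and 3.33 to 7.89 in null libraries.

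The makeup of EMP was then compared. A macrophage UMI was found in 50%, 56.7%, 59.1% and 20% of thinned EMP in E9.5 WT A to D, and in 70.4%, 75%, 71.4% and 45.0% in null A to D. The null mean was 19 percentage points higher, with null D inside the WT range (exact two-sided permutation test, p = 0.143). A UMI of Kit or Myb was found in 47.9%, 40.0%, 54.5% and 66.0% of WT and in 31.0%, 25%, 28.6% and 60.0% of null EMP, where 3 null libraries lay below the WT range and null D within it (p = 0.171, exact permutation test). Such a UMI was also seen in 15% of spinal cord progenitors. Neither difference passed the test. At E8.5 a macrophage UMI was rarer, at 18.5% and 9.52% in WT A and B and 29.7% and 0% in null A and B. The count of 0 among 7 cells in null B was taken to allow up to 3 cells, a share of 42.9%.

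Of the 3 UMI shares compared, that of granule transcripts had the largest E9.5 difference, which did not pass the test at that stage alone. A UMI of Mpo, Prtn3, Elane or Ctsg was found in 79.2%, 86.7%, 54.5% and 86.0% of thinned EMP in E9.5 WT A to D, and in 25.4%, 12.5%, 57.1% and 50% in null A to D. Null C thus lay above WT C, and the other 3 null libraries lay below all WT libraries (difference -40.3 percentage points, exact two-sided permutation test, p = 0.0571). At E8.5 the shares were 70.4% and 52.4% in WT and 35.1% and 14.3% in null libraries, without overlap. With 2 libraries each this gave p = 0.333 (exact permutation test), the smallest possible there. Over both stages, with labels permuted within a stage, the difference was -38.5 points (p = 0.00952 over 12 libraries, exact permutation test, smallest possible 0.00476). The gene set and this test were chosen after the values had been seen. Without thinning the E9.5 shares were 89.6% to 93.3% in WT and 45.1%, 25%, 85.7% and 90.0% in null libraries. The E8.5 shares then overlapped, at 81.5% and 57.1% in WT and 59.5% and 57.1% in null libraries. In spinal cord progenitors 2.89% of cells had a granule UMI after thinning, and in E9.5 WT Megakaryocyte progenitors 8.45% of 71 cells, whose median depth before thinning was 32573 UMIs.

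**Figure D2:**
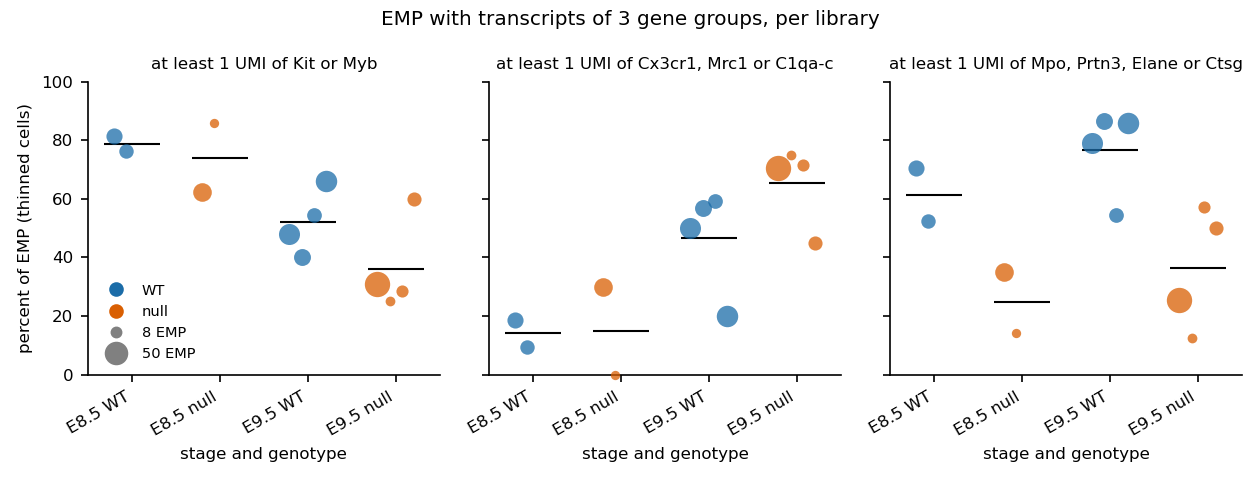
Percent of EMP, thinned to 10000 UMIs, with a UMI of Kit or Myb, of 5 macrophage genes or of 4 granule genes, 1 point for each library with its area by the number of EMP, and a black line at the group mean. Granule UMIs are found in 54.5% to 86.7% of E9.5 WT and 12.5% to 57.1% of E9.5 null EMP.

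Most of the granule signal came from 2 genes, Prtn3 and Mpo, while Elane (neutrophil elastase) did not exceed 5.92 CPM and Ctsg (cathepsin G) was at 0 UMIs in every E9.5 library. The stretches before their RefSeq starts are shown because these 2 genes carry the contrast in granule transcripts. Both are on the plus strand of GRCm38.p6, from RefSeq. Each stretch begins 250 bases before the start and ends where the first annotated exon begins, and the bases beyond were not searched. Capitals mark GAGGAA, a site type of the EMP factor PU.1.
Prtn3, chr10:79879417-79879613: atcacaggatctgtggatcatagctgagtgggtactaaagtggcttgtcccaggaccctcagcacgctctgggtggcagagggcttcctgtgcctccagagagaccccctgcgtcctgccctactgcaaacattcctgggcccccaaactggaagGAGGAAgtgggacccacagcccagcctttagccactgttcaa
Mpo, chr11:87793534-87793580: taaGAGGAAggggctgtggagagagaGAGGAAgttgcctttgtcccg
The Prtn3 stretch lies within the longer GENCODE gene model (chr10:79874476-79883174), outside its exons. GAGGAA occurs 95 to 90 bases before the RefSeq start of Prtn3, and 247 to 242 and 224 to 219 bases before that of Mpo. It occurs on either strand in 23.25% of 32851 RefSeq promoters of 250 bases, so a match is a description and no sign of binding. TTCNNNGAA (STAT, in 7.02% of these promoters) and TGTGGT (RUNX, in 14.05%), searched on both strands as well, had no match in either stretch. The stretches hold 197 (Prtn3) and 47 bases (Mpo), so the shares over 250 bases are no matched background for them.

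Prtn3 stood at 547, 378, 491 and 473 CPM in E9.5 WT A to D, and at 35.2, 20.9, 59.4 and 86.3 CPM in null A to D. Mpo stood at 382, 246, 190 and 271 CPM in WT and at 72.5, 17.9, 40.0 and 73.8 CPM in null libraries. The highest null library stayed below the lowest WT library for both genes. The genotypes did not overlap for 7.31% of all genes in these libraries. Among thinned cells with a Prtn3 UMI the mean number was 7.78, 4.57, 12.4 and 6 UMIs in WT and 2.88, 2, 2.67 and 2.29 in null EMP (exact permutation test, p = 0.0286, 0.124 adjusted over 13 comparisons of this kind). Fewer null EMP carried Prtn3 as well, at 11.3%, 12.5%, 42.9% and 35.0% against 75%, 76.7%, 45.5% and 72.0% of WT EMP (p = 0.0286, exact permutation test, 0.143 adjusted over 20 comparisons).

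Summed over a library and tested with edgeR, Prtn3 at E9.5 had a log2 fold change of -3.05 (SE 0.40, adjusted p = 0.0908) in the libraries with more than 15 EMP, null A and D against WT A to D. With all 8 libraries of at least 5 EMP it was -3.14 (SE 0.33, edgeR adjusted p = 0.00953), which passed. Mpo gave -1.90 (SE 0.28, adjusted p = 0.0821) and -2.21 (SE 0.34, adjusted p = 0.0577) in the same edgeR fits and passed in neither. Of 23 tested members of the granulocyte and monocyte list, Prtn3 and Mpo included, none was called in the libraries with more than 15 EMP (edgeR, 2 higher and 3 lower at an unadjusted p under 0.05, a level that 7.63% of all genes reached), and the summed level of the list was 3877 ± 554 CPM in WT and 3819 ± 392 CPM in null libraries (SD, n = 4 each, exact permutation test, p = 0.914). Tyrobp and Fcer1g, adaptor chains of myeloid receptors, stood at 287 to 528 and 320 to 522 CPM in WT, and at 501 to 707 and 561 to 863 CPM in null libraries.

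Stat3 itself was lower in null EMP. It lies at chr11:100885098-100939540 (GRCm38, minus strand). It reached 35.3 and 38.2 CPM in E8.5 WT A and B, and 7.41 and 5.77 CPM in null A and B. At E9.5 it reached 36.9, 30.7, 37.0 and 36.0 CPM in WT A to D, and 6.16, 5.97, 7.75 and 11.7 CPM in null A to D. No null library reached a WT library. Averaged within stages the difference was -27.8 CPM over the 9 libraries with more than 15 EMP (exact two-sided permutation test, p = 0.0222, the smallest that 45 arrangements can give) and -28.7 CPM over the 12 with at least 5 (p = 0.00476, exact permutation test, smallest possible). The counts are per gene from a 3′ kit and the replaced exons are internal, so the level does not itself show the deletion.

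The next comparison was of expression between null and WT EMP at E9.5. Null EMP had less RNA of the cytokine receptor chain Csf2rb, the kinase Pim1, haptoglobin and the interferon-type genes Ifitm1 and Ifi211, and more of the spliceosome gene Cwc22, the mitochondrial enzyme gene Acss1 and cyclin D1. None of the 4 EMP markers was called. To be called, a gene needed an adjusted p under 0.05 and an absolute log2 fold change over 1 in the libraries with more than 15 EMP. This held for 16 of 8771 genes (0.182%), 8 higher and 8 lower in null EMP (0.0912% each). The groups of these 6 libraries did not overlap for 17.4% of all genes, and those of the 8 libraries with at least 5 EMP for 7.31%, so a lack of overlap alone is common.

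Of the receptors, Csf2rb changed. It lies at chr15:78325752-78353847 and encodes the beta chain that the receptors for GM-CSF, IL-3 and IL-5 share. It stood at 54.3, 23.7, 28.1 and 31.3 CPM in WT A to D, and at 5.47, 0, 12.9 and 2.51 CPM in null A to D, without overlap (log2 fold change -2.95, SE 0.44, edgeR adjusted p = 0.0326). Of 20 receptors tested it was the only one called, against 0.182% of all genes, and the median of the list was 0.17 against 0.00 over all genes. The alpha chains that pair with it gave log2 fold changes of 0.03 for Csf2ra and -0.04 for Il3ra. Csf1r stood at 57.3 to 137 CPM in WT and 88.0 to 191 CPM in null libraries, and Il6st, the gp130 chain upstream of STAT3, at 11.8 to 24.4 and 12.6 to 26.9 CPM. These ranges overlapped.

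Of the genes that STAT proteins are known to induce, Pim1 fell and Ccnd1 rose. Pim1 (chr17:29490753-29496112), a survival kinase gene, stood at 167, 227, 141 and 231 CPM in WT A to D, and at 46.5, 41.8, 40.0 and 59.5 CPM in null A to D. The genotypes did not overlap, whether the WT libraries held Xist or not (log2 fold change -1.88, SE 0.26, edgeR adjusted p = 0.047). Ccnd1, cyclin D1, stood at 48.5, 43.4, 25.9 and 37.0 CPM in WT, and at 154, 29.8, 81.4 and 93.0 CPM in null libraries, where null B lay within the WT range (1.69, SE 0.24, edgeR adjusted p = 0.0369). Ccnd1 was not called with all 8 libraries of at least 5 EMP (1.37, edgeR adjusted p = 0.242) or in cells without (1.06) or with (1.33) a macrophage UMI fitted separately, nor without WT A, WT B or WT D. Pim1 and Ccnd1 were the only 2 called of 18 tested STAT feedback and target genes, against 0.182% of all genes, and the median of the list was 0.04.

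Of the 18 genes 10 had a positive and 8 a negative fold change, and 2 were higher and 6 lower at an unadjusted p under 0.05, a level that 3.77% of all genes reached downward. Some lower members follow, none of them called. Junb, an AP-1 subunit, stood at 109, 110, 108 and 112 CPM in WT, and at 75.2, 71.6, 80.1 and 56.2 CPM in null libraries (log2 fold change -0.70, SE 0.14, edgeR adjusted p = 0.081). Pim2 gave 6.64 to 10.4 CPM in WT and 0 to 2.58 CPM in null libraries, and Bcl3 3.15 to 8.29 and 0 to 0.838 CPM. Socs3 and Cish, feedback inhibitors of cytokine signalling, were too low for the test, at most 7.75 and 2.98 CPM in any E9.5 library. Mcl1 and Myc gave 0.04 and -0.30. Among 10 tested STAT and JAK genes Stat3 alone was called, against 0.182% of all genes.

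The other genes called lower were of mixed function. Hp, haptoglobin, stood at 95, 65.4, 97.6 and 75.1 CPM in WT, and at 12.7, 0, 14.2 and 22.6 CPM in null libraries (log2 fold change -2.35, edgeR adjusted p = 0.00565). Ifitm1, an interferon-inducible membrane protein gene, stood at 39.8, 48.1, 46.6 and 51.1 CPM against 6.50, 14.9, 2.58 and 10.9 CPM (-2.51, edgeR adjusted p = 0.00269). Ifi211, of the interferon-inducible p200 family, stood at 85.4, 40.2, 40.7 and 32.8 CPM against 2.05, 8.95, 5.17 and 1.68 CPM (-4.67, edgeR adjusted p = 0.0495). None of the 3 overlapped between genotypes, as was true of 7.31% of all genes over the libraries with at least 5 EMP. In the list of interferon-type and MHC class I genes Ifitm1 alone was called of 16 tested, against 0.182% of all genes. Ifi211 is not in this list. At an unadjusted p under 0.05 in edgeR, reached by 7.63% of all genes, 2 members were higher and 3 lower. The median of the list was 0.04. Pusl1, a pseudouridine synthase-like gene (-1.99), and Tnnt1, slow skeletal troponin T (-1.66), completed the group.

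Among the genes called higher, Cwc22 (chr2:77881159-77946375, minus strand), a splicing factor gene, was the most even. It stood at 43.5, 43.4, 40.7 and 45.4 CPM in WT A to D, and at 143, 140, 165 and 135 CPM in null A to D (log2 fold change 1.69, SE 0.12, edgeR adjusted p = 7.80e-05). Acss1, a mitochondrial acetyl-CoA synthetase gene, stood at 4.98, 3.94, 8.14 and 3.13 CPM against 22.2, 41.8, 23.2 and 20.1 CPM (2.10, edgeR adjusted p = 0.0359). Stk39, a kinase gene of ion transport control, stood at 12, 13.4, 25.1 and 14.6 CPM against 53, 62.7, 55.5 and 36.9 CPM (1.53, edgeR adjusted p = 0.047). All 3 separated the genotypes in all 8 libraries, as did 7.31% of all genes tested there. Lack of overlap was also part of the rule by which called genes were named, so it is no further support. Cd69, a leukocyte activation marker, was at most 2.61 CPM in WT and 2.98 to 18.1 CPM in null libraries (3.77). Zdbf2 (2.08), Zfhx3 (1.22) and Ralgps2 (1.08) were the rest, and Zdbf2 overlapped between genotypes once null B and C were included.

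**Figure D3:**
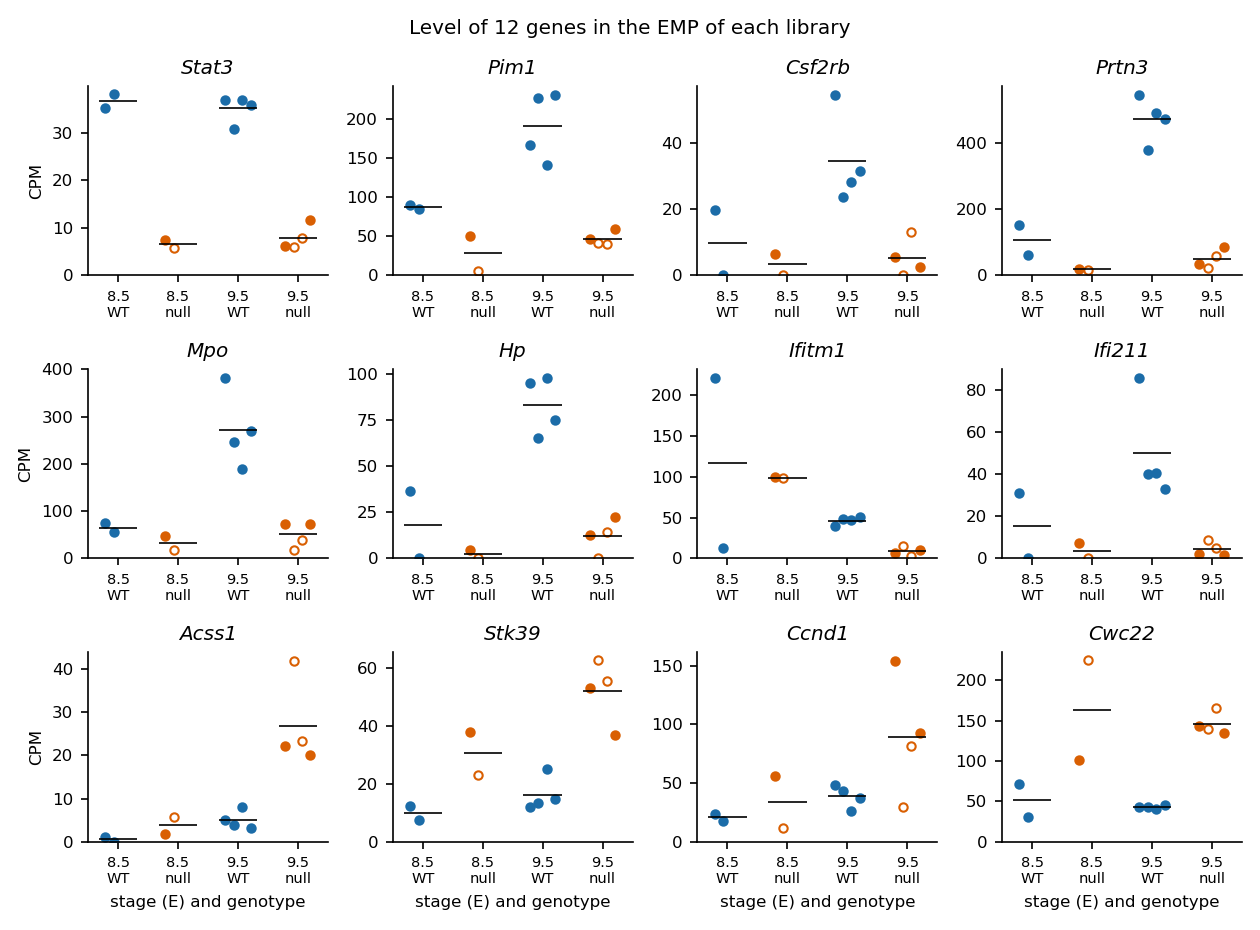
CPM of 12 genes in EMP, 1 point for each library of E8.5 and E9.5 by genotype, open where a library has 15 or fewer EMP, with a black line at the group mean. At E9.5 Stat3, Pim1, Csf2rb, Prtn3, Mpo, Hp, Ifitm1 and Ifi211 lie lower and Cwc22, Acss1 and Stk39 higher in all null than in all WT libraries. The genotypes did not overlap for 7.31% of all genes in these libraries.

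The EMP markers gave log2 fold changes of -0.38 (Kit), -0.49 (Myb), 0.04 (Runx1) and -0.07 (Spi1) at E9.5, with edgeR adjusted p from 0.757 to 0.979. Kit stood at 31.8 to 53.2 CPM in WT and 23.9 to 41.9 CPM in null libraries. Of 20 tested transcription factors of blood progenitors, 42 S phase genes, 52 G2/M genes, 18 genes of glycolysis and 18 of survival and p53, none was called, against 0.182% of all genes (edgeR, 3, 0, 4, 1 and 1 at an unadjusted p under 0.05). No macrophage gene was called either. In the libraries with more than 15 EMP 11 of 15 tested members had a positive fold change, with a median of 0.45 against 0.00 over all genes, and the 1 member at an unadjusted p under 0.05 was lower. In the fit of 8 libraries all 13 tested members had a positive fold change, with a median of 0.70 against 0.01 over all genes. Beside this stand the shares of EMP with a macrophage UMI above, and the part of the mixture in each gene was examined next. No member was called in the lists of progenitor surface proteins (11 tested), erythroid (16), megakaryocyte (13), mast cell (2), lymphoid (2), endothelial (13), oncofetal growth (12) and adhesion genes (13), or in those of mesenchyme (4), epithelium (3) and neural cells (5), in the libraries with more than 15 EMP. At an unadjusted p under 0.05 in edgeR, reached by 7.63% of all genes, stood 4 oncofetal genes (2 higher), 3 surface protein genes (all lower), both mast cell genes (both lower), 2 neural genes (both higher) and at most 3 of each other list. Of a list of 11 genes that the study or earlier results had picked from erythroid cells of these same libraries 7 were tested, and Acss1 was called higher and Pim1 and Csf2rb lower, which is no independent evidence. Among markers of cells outside the blood, the 5 tested neural genes all had a positive fold change (median 0.75), and the neural list summed to 371 CPM in null A and 296 CPM in WT D against 62.7 to 152 CPM in the other E9.5 libraries. Its part in the results was not tested. The endothelial list summed to 803 CPM in null B against 314 to 456 CPM in the other E9.5 libraries.

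With all 8 libraries of at least 5 EMP, 22 of 7971 genes were called (0.276%), 8 higher (0.1%) and 14 lower (0.176%), and 12 of the 16 were among them. Besides Prtn3 they added Grb10, an imprinted growth adaptor, at 54.3, 22.1, 36.2 and 68.8 CPM in WT and 2.74, 0, 3.87 and 2.51 CPM in null libraries (log2 fold change -4.07, edgeR adjusted p = 0.00186). Srgn, the proteoglycan core of secretory granules, stood at 146, 122, 128 and 97.0 CPM against 66.7, 32.8, 52.9 and 63.7 CPM (-1.07, edgeR adjusted p = 0.00648). Fut8, a fucosyltransferase gene, gave -1.24 and Crim1 1.96. The number called rested on single libraries, with 8 called without WT A or without WT B. Without null A or null D a single null library of E9.5 was left, assumed to vary like the other groups. Those fits therefore also held the E8.5 libraries, as the fit over all stages did. A change of calls there cannot be laid to the missing library alone. Of the genes named here Cwc22 was called in 14 of 14 alternatives. Csf2rb, Hp, Ifitm1 and Ifi211 were no longer called in the fit over all stages (edgeR adjusted p from 0.224 to 0.664) or without null A or null D. Csf2rb was also not called with thinned cells, nor Ifi211 without WT B or without WT C. Pim1 was no longer called without WT A, WT B or null A (adjusted p at most 0.0856). Their fold changes stayed negative throughout. Stat3 was no longer called with thinned cells, without WT A or without null A (adjusted p at most 0.179). Acss1 was no longer called without WT A, WT B, null A or null D, in 4 of 12 alternatives, and Stk39 in 7 of 14, thinned cells among them, while both stayed higher in null EMP.

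To see in which EMP these genes differed, cells without and with a macrophage UMI were summed and fitted separately, a split chosen after the values had been seen. Without a macrophage UMI, 17 of 6947 genes were called, 4 of them among the 16, and with one 19 of 6038, 8 of them among the 16. Stat3, Pim1 and Cwc22 were called in both. Pim1 gave -1.58 (edgeR adjusted p = 0.00482) without and -1.96 (0.000101, edgeR adjusted) with a macrophage UMI, and Cwc22 gave 1.79 and 1.73. Lower Pim1 and higher Cwc22 were thus seen on both sides of the split. Csf2rb and Hp were called on neither, at -3.77 and -4.88 without and -2.21 and -2.69 with a macrophage UMI (edgeR adjusted p from 0.113 to 0.666).

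For the granule genes the difference between both sides of the split was not tested. Prtn3 stood at 551, 479, 457 and 455 CPM in WT A to D and at 72.4 and 38.7 CPM in null A and D in cells without a macrophage UMI (log2 fold change -3.06, edgeR adjusted p = 3.37e-13). With a macrophage UMI it stood at 544, 293, 506 and 543 CPM in WT, and at 19.5, 4.44, 47.6 and 134 CPM in null A to D (-3.17, edgeR adjusted p = 0.168). No null value reached a WT value in either. Mpo was called in cells with a macrophage UMI, at 152 to 246 CPM in WT and 0 to 38.4 CPM in null libraries (-3.36, edgeR adjusted p = 0.0092). It was not called in cells without one, at 277 to 514 CPM in WT and 211 and 109 CPM in null A and D (-1.08, edgeR adjusted p = 0.666).

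Acss1 was mainly a transcript of the cells with a macrophage UMI. It lay between 1.32 and 3.44 CPM without one in the 6 E9.5 libraries with at least 5 such cells, null A and D among them. With one it stood at 8.73, 4.37, 10.6 and 10.1 CPM in WT and 30.7, 62.2, 33.0 and 36.7 CPM in null A to D (log2 fold change 2.11, edgeR adjusted p = 0.00274). Stk39 with a macrophage UMI stood at 4.36, 8.74, 31.8 and 17.6 CPM in WT and 66.7, 80.0, 73.2 and 45.1 CPM in null libraries (2.10, edgeR adjusted p = 0.0883), and gave 0.62 without one, where it stood at 9.77 to 19 CPM in WT libraries and at 20.7 and 28.6 CPM in null A and D. Acss1 was thus higher in null EMP among cells with a macrophage UMI as well as over all EMP. Ifitm1 stood at 49.3 to 87.6 CPM in WT and 10.3 and 10.1 CPM in null A and D among cells without a macrophage UMI (-2.75, edgeR adjusted p = 9.55e-06). With one it stood at 3.49 to 57.8 CPM in WT and 0 to 11.7 CPM in null libraries.

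How far these differences were shared by the rest of the embryo was tested against all other cells of the same libraries. The log2 CPM of a gene in EMP minus that in all other cells was formed per library and compared between genotypes with limma over 8 libraries, a test chosen after seeing the data. Of 7971 genes, 4 differed, Pim1, Acss1, Rgs10 and Stk39. The null effect on Pim1 was lower by 1.94 on the log2 scale in EMP than in all other cells together (SE 0.17, limma adjusted p = 0.000572), while all other cells held 83.9 ± 8.33 CPM in WT and 82.4 ± 6.27 CPM in null libraries (SD, n = 4 each). Acss1 gave 2.72 (SE 0.34, limma adjusted p = 0.0103), with 2.48 ± 0.722 CPM in WT and 1.65 ± 0.204 CPM in null cells elsewhere. Erythroid cells, which held 26.6 CPM of Acss1 in E9.5 WT libraries and were rare among null cells, are part of that comparison, and their part in it was not tested. Rgs10, a regulator of G protein signalling, gave 1.37 and Stk39 1.79 (limma adjusted p = 0.0103 and 0.0267).

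Cwc22 and Zdbf2 were also higher in null cells of the rest of the embryo. Cwc22 stood at 37.6 ± 0.843 CPM in WT and 166 ± 8.58 CPM in null cells outside EMP, and the difference of its effect was -0.39 (limma adjusted p = 0.253). Zdbf2 stood at 70.0 ± 2.17 and 145 ± 8.84 CPM there. Stat3 itself differed by -0.55 more in EMP (limma adjusted p = 0.425). For Prtn3 the difference was -3.31 (SE 0.43, limma adjusted p = 0.0823), which did not pass. Prtn3 reached at most 15.6 CPM in any other E9.5 WT type compared, so this does not show a shared change. The number of genes that differed ran from 1 without WT B to 13 without null B, and was 8 without WT C and 8 without null D. Pim1 was called in 9 of 9 alternatives.

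**Figure D4:**
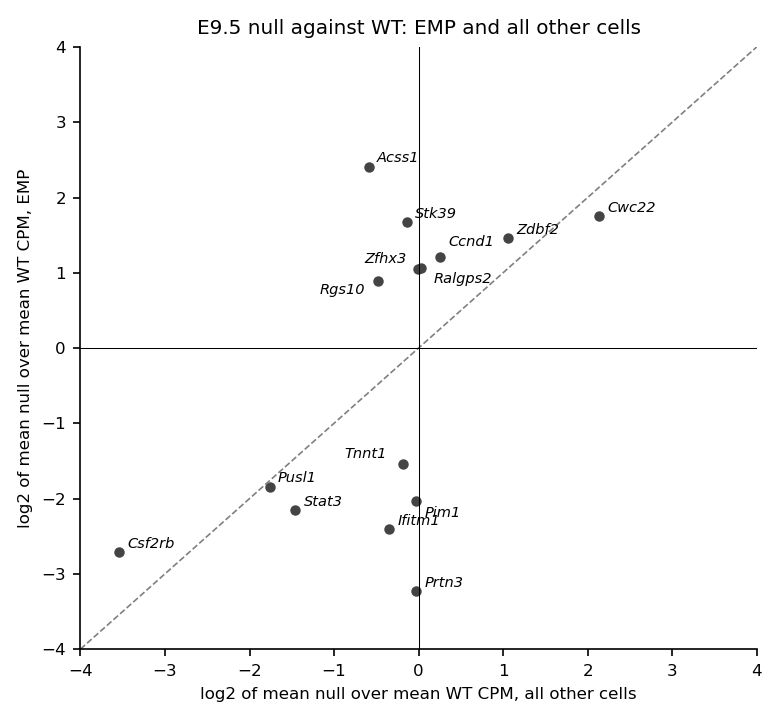
Log2 of the null over the WT mean CPM at E9.5 in EMP (vertical) against all other cells of the same libraries (horizontal), with a dashed line at equality. Each point is 1 gene called at E9.5, with Cd69, Hp and Ifi211 left out and Rgs10 and Prtn3 added. Cwc22 lies near the line, while Pim1 lies below it and Acss1, Stk39 and Rgs10 lie above it.

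Against the Megakaryocyte progenitors, the type most like EMP among those compared, no gene was called for a different null effect at E9.5. edgeR called 0 of 7664 genes, with 466 at an unadjusted p under 0.05, and limma-voom called 2. The test ran over 7 libraries with 6 to 34 Megakaryocyte progenitors. In simulated data it found 19.8% of genes changed by 1 log2 unit and 59.8% of those changed by 2, so it could miss differences. In Megakaryocyte progenitors Pim1 gave -0.76 (95% interval -1.45 to -0.07, edgeR adjusted p = 1.00, 0.0329 unadjusted), and the difference from EMP was -1.25 (SE 0.34, edgeR adjusted p = 0.608), and for Cwc22 -0.05. In Megakaryocyte progenitors alone 4 of 5206 genes were called, all lower in null cells, Cd59a, Grb10, Tnnt1 and Tpm3-rs7.

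At E8.5 a single null library held more than 15 EMP, so the genotypes were compared in the 4 libraries with at least 5. No gene was called (edgeR, 0 of 6295, 0.0%, 233 at an unadjusted p under 0.05, and 0 with DESeq2). Prtn3 stood at 152 and 61.2 CPM in WT and 20.4 and 17.3 CPM in null libraries (log2 fold change -2.52, edgeR adjusted p = 0.349). Pim1 stood at 89.3 and 84.1 CPM in WT and 50 and 5.77 CPM in null libraries (-1.16, edgeR adjusted p = 0.999). Neither overlapped between genotypes, as was true of 34.4% of all genes tested. Csf2rb was at 19.7 and 0 CPM in WT and 6.49 and 0 CPM in null libraries. No gene was called for a null effect that differed between the stages (edgeR interaction, 0 of 8528, 269 at an unadjusted p under 0.05). What this test could detect was not simulated, so equal effects at both stages are not shown.

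The last comparison followed WT EMP from E8.5 to E9.5. Stage and library preparation cannot be told apart in it. Depth differed too, with a median of 34369 and 18518 UMIs per EMP in E8.5 WT A and B and 37317 to 67830.5 in E9.5 WT libraries. Several endothelial genes and Kit fell, and 54 of 8312 genes were called (0.65%), 15 higher (0.18%) and 39 lower (0.469%) at E9.5. EMP of both genotypes together mapped to a late atlas stage, with 80 of 92 EMP at E8.5 (87.0%) and 229 of 263 at E9.5 (87.1%) mapped to atlas E9.25 or E9.5. Cdh5, the cadherin of endothelial junctions, stood at 29.1 and 71.4 CPM at E8.5 and at 9.54, 4.73, 4.44 and 2.61 CPM at E9.5 (-3.12 on the log2 scale, SE 0.48, edgeR adjusted p = 0.0102). Plvap, of endothelial diaphragms, stood at 39.5 and 40.8 CPM and then at 7.05, 5.52, 8.14 and 5.21 CPM (-2.72, edgeR adjusted p = 0.00107). Cdh5 was no longer called without E8.5 WT B or E9.5 WT B, and Plvap with thinned cells (edgeR adjusted p = 0.174). Of 14 endothelial genes tested 4 were called, all lower, and 13 had a negative fold change with a median of -1.33 against 0.01 over all genes.

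Col4a1, a basement membrane collagen gene, stood at 33.2 and 51.0 CPM at E8.5 and at 9.12, 5.52, 8.88 and 9.38 CPM at E9.5 (-2.35 on the log2 scale, edgeR adjusted p = 0.00298). Cd59a, a complement regulator gene, stood at 69.6 and 120 CPM and then at 20.3, 16.6, 28.1 and 13.0 CPM (-2.32, edgeR adjusted p = 0.00298). Kit stood at 99.7 and 107 CPM and then at 52.7, 43.4, 31.8 and 53.2 CPM (-1.26, SE 0.20, edgeR adjusted p = 0.00739). Kit was no longer called with thinned cells or without either E8.5 library. Runx1 went from 299 and 268 CPM to 168, 184, 153 and 178 CPM (-0.84, edgeR adjusted p = 0.00468), under the fold asked of a call. The stages did not overlap for these genes, as for 29.2% of all genes tested.

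Higher at E9.5 were Nrp1, a co-receptor of semaphorins and VEGF, at 5.19 and 2.55 CPM and then 27.8, 31.5, 34.8 and 24.5 CPM (log2 fold change 2.62, edgeR adjusted p = 0.00817), and Lrp1, an endocytic receptor of phagocytes (3.43). Dlk1 (2.11), the tubulin genes Tubb2b (2.23) and Tuba4a (2.10) and the MHC class I gene H2-K1 (1.69) were called as well. None of these 6 was called without E8.5 WT A or without E8.5 WT B, where 5 and 1 genes were called higher in place of 15, and Dlk1 and Tubb2b were not called with thinned cells. The myeloid genes pointed the same way without a call. Prtn3 went from 152 and 61.2 CPM to between 378 and 547 CPM (1.92, edgeR adjusted p = 0.0676), Mpo from 74.8 and 56.1 CPM to between 190 and 382 CPM (1.91, edgeR adjusted p = 0.0789). Of 13 macrophage genes tested 12 were higher, with a median of 2.68 against 0.01 over all genes. None was called, against 0.65% of all genes. At an unadjusted p under 0.05 in edgeR 5 were higher, a level that 6.45% of all genes reached upward.

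**Figure D5:**
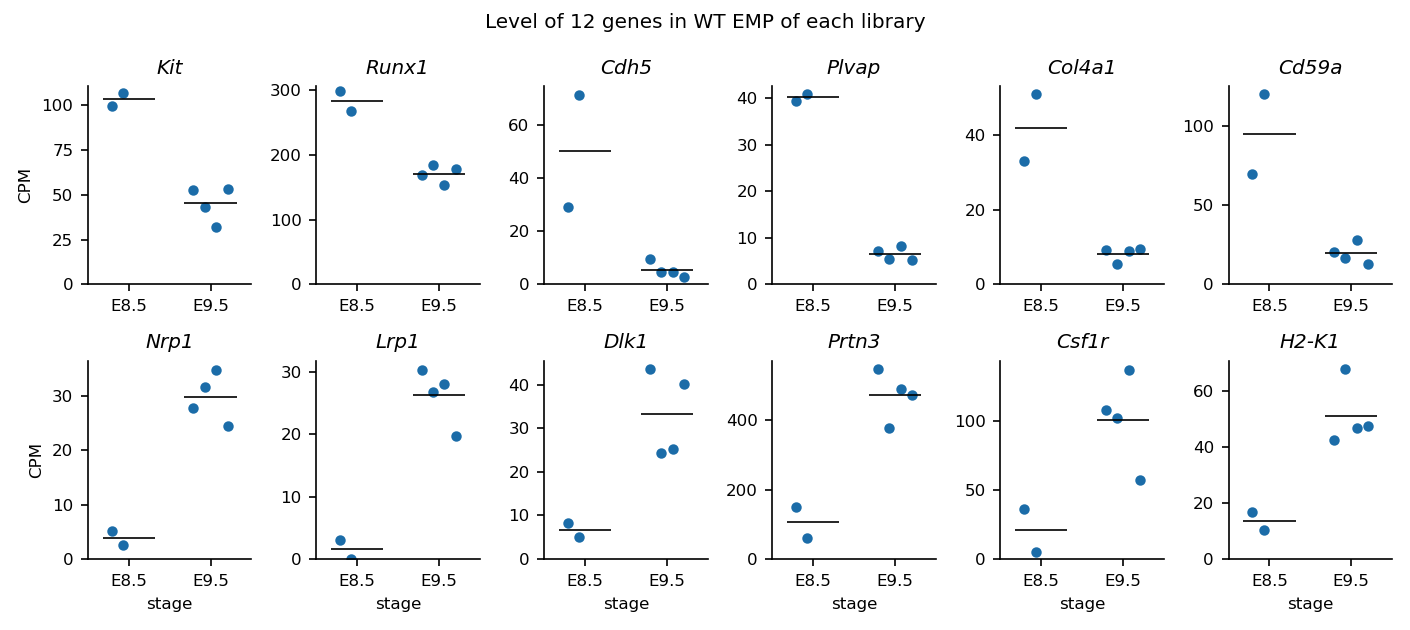
CPM of 12 genes in WT EMP at E8.5 (2 libraries) and E9.5 (4 libraries), 1 point for each library with a black line at the group mean. Kit, Runx1, Cdh5, Plvap, Col4a1 and Cd59a lie lower and Nrp1, Lrp1, Dlk1, Prtn3, Csf1r and H2-K1 higher at E9.5.

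The mixture also differed between the stages, with a macrophage UMI in 9.52% and 18.5% of E8.5 and 20% to 59.1% of E9.5 WT EMP. In EMP without such a UMI 60 genes were called, 33 of them among the 54. Kit then gave -0.39 (edgeR adjusted p = 0.578), whereas Cdh5 (-2.39), Plvap (-2.01), Col4a1 (-1.83) and Cd59a (-2.07) were still called. Prtn3 was called higher in these cells (2.26, edgeR adjusted p = 7.31e-12), as was Pim1 (1.26, edgeR adjusted p = 0.0024). The count ran from 22 without either E8.5 library, through 30 without E9.5 WT A, to 197 without E9.5 WT D.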

How the data were processed

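The authors deposited UMI counts per gene and cell, made with Cell Ranger on mm10 with a tdTomato sequence added according to the submitters' processing notes and the study's methods, together with labels, quality and doublet calls. The authors also deposited the percent of mitochondrial UMIs of each cell and, as a fraction, the share of atlas neighbours that bore its label. Library names matched no sample title, so libraries were grouped by the stage and tdTomato gate that the deposited cell table gives. The matrix held 41832 cells, from which 3395 doublets were removed, and 596 cells of the WT gate (2 of them EMP) because they held a tdTomato UMI. The members and gene lists were chosen with earlier results of these data known.

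EMP counts were summed per library. The tests left out 8178 of 29453 genes, namely tdTomato, Tsix, Xist, genes of the Y chromosome, haemoglobin chains, ribosomal protein and mitochondrial genes, and predicted genes (Gm and Rik). Summed counts were tested with edgeR 4.0.16 (R 4.3.3, quasi-likelihood, robust, TMM factors, default filter on low counts), and Benjamini-Hochberg adjusted p-values ran over all genes tested. The variance of a gene was moderated over all genes, so its p-value does not rest on its own spread alone. Libraries with more than 15 EMP entered, and those with at least 5 were an alternative. At E8.5 and for the comparison with other types the planned choice left too few libraries, so at least 5 cells were asked there. DESeq2 1.42.0 and limma 3.58.1 were alternatives, and single values were tested by exact two-sided permutation (scipy 1.17.1, Python 3.11.15). In simulated data of the E9.5 null against WT comparison 50.6% of genes changed by 1 log2 unit and 88.0% of those changed by 2 had an adjusted p under 0.05. For the comparison with Megakaryocyte progenitors these shares were 19.8% and 59.8%. The granule share, the split by macrophage UMI, EMP per Erythroid cell and the test against all other cells were chosen after the data had been seen, with cells thinned to 10000 UMIs for shares. Binomial intervals of shares cover counting error only. Genes named were the EMP markers, Stat3, members of the STAT and receptor lists and of a list picked from erythroid results of these libraries, the called genes of largest fold without overlap, leading members of the other lists and genes highest in EMP against other types. Genes outside this rule, such as Rgs10, the macrophage and granule genes and Xist, were chosen after their values were seen.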

Additional observations from a re-analysis of the deposited data

Results flagged for a closer look

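In groups of 4 libraries, 4 values stood far from the other 3 of their group, among 56 groups tested, where chance flags about 1 in 20 groups (2.8 here). At E9.5 WT A had the highest Ifi211 level at 85.4 CPM, and WT B the lowest Stat3 level of WT at 30.7 CPM, still above all null libraries. Null B, with 8 EMP, had the highest Acss1 level at 41.8 CPM. Null D had the lowest share of EMP with a macrophage UMI among null libraries, 45.0%.

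For 4 genes the effect of the null genotype differed between EMP and all other cells of the same E9.5 libraries (limma, 8 libraries, adjusted over 7971 genes). The difference was 2.72 for Acss1, -1.94 for Pim1, 1.37 for Rgs10 and 1.79 for Stk39 on the log2 scale. Pim1 was called in 9 of 9 alternatives and Stk39 in 3 of 9. The test does not set EMP apart from other blood types, and edgeR called no gene for a difference from Megakaryocyte progenitors.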

How the results depend on the processing

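No paired analysis was possible because the labels number pools of embryos while the names of the cells' libraries match no title. At E9.5 the null against WT comparison called 16 genes, 32 with DESeq2, 70 without a filter on low counts, and 8 to 33 when single libraries were left out. At E8.5 it called 0, 20 without a filter and 1 with thinned cells. Leaving out an E8.5 library left 1 of its genotype, so those fits held both stages as well. The WT stages gave 54, then 103 with DESeq2, 249 without a filter, 30 with thinned cells and 22 to 197 without single libraries. The difference from Megakaryocyte progenitors gave 0, then 2 with limma-voom and 0 to 5 without single libraries, and that from all other cells 4, then 6 in libraries with more than 15 EMP and 1 to 13 without single libraries. Causes were not tested.

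The log2 fold change of EMP abundance ran from -0.36 to 0.56 at E8.5, changing sign without WT B (-0.32) or null A (-0.36), from -0.71 to -0.03 at E9.5, and from -0.86 to 0.20 for the difference between stages, positive without E8.5 null A. Without single libraries the Stat3 difference stayed between -29.2 and -26.2 CPM, the log2 EMP per Erythroid cell between 3.29 and 3.72, the granule difference between -47.7 and -32.4 points and the macrophage difference between 10.2 and 25.8 points. With 3 libraries against 4 an exact test can give no p below 0.0571 for the E9.5 values taken without a library. Without single libraries Runx1 ran from -0.31 to 0.36 and Spi1 from -0.18 to 0.053 at E9.5. Among genes not called there, Kit changed sign in EMP without a macrophage UMI (0.12), Runx1 with thinned cells (-0.12), without WT C (-0.01) and without null D (-0.31), and Spi1 with at least 5 EMP (0.10), with thinned cells (0.071), without WT C (0.053) and without null D (0.02).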

Other observations

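Over all stages the labels held 2194 Erythroid cells, 302 Blood progenitors, 206 Haematoendothelial progenitors, 183 Megakaryocyte progenitors and 60 MEP beside the 359 EMP. The label transfer gave EMP with all neighbours of that type in 258 of 359 cells (71.9%) and with a share of neighbours under 0.5 in 12 (3.34%).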
